A study of Homo sapiens with 10 samples.

Results

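The lysyl oxidase family was examined as the genes LOX, LOXL1, LOXL2, LOXL3 and LOXL4, 5 of the 24050 genes listed in either of the count tables. The members were taken by symbol, and all 5 were listed for both cell types. RNA-seq was performed on 10 libraries, 3 of wild-type (WT) and 3 of ZNF274 knockout (KO) HEK293T cells, named S15 to S17 and S18 to S20, and 2 of WT (S3 and S5) and 2 of ZNF274 KO (S1 and S2) neural progenitor cells (NPCs). HEK293T is a line derived from human embryonic kidney that carries the SV40 large T antigen, and the NPCs were differentiated from H1 human embryonic stem cells through embryoid bodies in a neural induction medium. The KO was made by CRISPR-Cas9 with a pair of guides flanking ZNF274, which encodes a KRAB zinc finger repressor, and clones were grown from single sorted HEK293T cells and from single picked colonies of the embryonic stem cells. The labels describe independent clones but not which clone gave which library, so the p-values measure the spread between these libraries.

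Lysyl oxidases are secreted copper enzymes that oxidise lysine residues of collagen and elastin to aldehydes, from which the covalent crosslinks of the extracellular matrix form. Each active site holds a copper ion and a quinone cofactor made from a lysine and a tyrosine of the enzyme itself. LOX and LOXL1 are made as proenzymes with a propeptide that BMP1 and related proteases remove, whereas LOXL2, LOXL3 and LOXL4 carry scavenger receptor cysteine-rich domains in front of the catalytic domain. The family is best known from connective tissue, vessel wall and scar, and it is induced by hypoxia and by TGF-beta in many cells.

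Sequence upstream of the first annotated RefSeq start is shown for members whose windows hold stretches outside annotated untranslated and coding sequence. These members were either strongly up-regulated in KO NPCs (LOX, LOXL4) or not (LOXL3). The LOXL3 stretch lies within the annotated spans of LOXL3 and DOK1. A DOK1 exon overlaps the LOXL3 window and was not left out, so the stretch may hold part of it. The windows come from RefSeq for GRCh38.p14 and each matched the minus strand of GRCh37 (hg19) once. LOX is shown at chr5:121414109-121414204, LOXL3 at chr2:74781089-74781319 and LOXL4 at chr10:100027952-100028201. Lower case marks the sequence and capitals mark matches to the motifs searched.
LOX: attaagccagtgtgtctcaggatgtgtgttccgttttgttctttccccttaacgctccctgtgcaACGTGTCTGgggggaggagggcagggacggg
LOXL3: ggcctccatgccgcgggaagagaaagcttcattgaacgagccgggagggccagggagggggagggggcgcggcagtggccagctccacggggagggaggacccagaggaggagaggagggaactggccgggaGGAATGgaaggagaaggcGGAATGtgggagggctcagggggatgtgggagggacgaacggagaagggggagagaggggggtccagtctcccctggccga
LOXL4: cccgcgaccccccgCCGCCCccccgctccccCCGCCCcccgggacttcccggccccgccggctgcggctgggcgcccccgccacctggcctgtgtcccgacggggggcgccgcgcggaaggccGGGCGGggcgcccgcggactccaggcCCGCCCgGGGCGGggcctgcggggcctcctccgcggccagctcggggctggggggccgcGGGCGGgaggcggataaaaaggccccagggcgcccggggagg

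The 250 bases upstream of each first start were searched on both strands for the hypoxia response core (ACGTG or GCGTG), AP-1 (TGANTCA), TEAD (GGAATG), SMAD (GTCTAGAC or CAGACA), the TATA box (TATAAA) and the SP1 GC box (GGGCGG). The LOX window held 4 matches to the hypoxia core, 1 to the SMAD letters and 1 to the GC box, and in the stretch shown the SMAD match overlaps a hypoxia core match. The other 3 hypoxia core matches and the GC box match lie within annotated exon of LOX and are not shown. Among all 35116 RefSeq promoter windows of this length, 43.2% held the hypoxia core, 13.8% the SMAD letters and 42.6% the GC box. Shares of this kind count windows with at least 1 match and are not matched on GC content. They do not show how usual a given number of matches is. The LOXL3 window held 2 matches to the TEAD letters, which 11.9% of windows hold, and none of the other motifs. A window at a later annotated LOXL3 start, not shown, held 1 hypoxia core match and 2 GC box matches. Later LOX windows, which overlap each other, held the same 2 hypoxia core matches. The LOXL4 window held 6 GC box matches and had a GC content of 86.4%, against 55.2% for LOX, 66.8% for LOXL1 and 64.4% for LOXL3. None of these motifs was found in the LOXL1 window, which lies within annotated untranslated sequence and is not shown. AP-1 letters are held by 6.57% and TATAAA by 10.7% of windows, and neither was found in the 4 windows of first starts. A match is a description of the letters and not of binding. No window was matched for LOXL2.

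Depth was similar across libraries, at 21421013 to 32285876 counts on genes in HEK293T cells and 18621266 to 23035490 in NPCs. ZNF274 was counted in every WT library, at 14.6 to 16.7 CPM (counts scaled to the TMM-normalised library size) in HEK293T cells and 23.2 to 25.4 CPM in NPCs. It had 0 counts in every KO library, which against a floor of 3 counts per library is at least 111-fold lower in HEK293T cells and at least 157-fold lower in NPCs. Agreement between libraries of a group was taken over genes with at least 1 CPM. Among the KO HEK293T libraries S18 stood apart, with 6.85 to 7.98% of these genes over 2-fold from S19 and S20, whereas those libraries differed at 1.99%. The WT NPC libraries S3 and S5 differed by over 2-fold at 5.30% of such genes and the KO NPC libraries at 1.15%. No pair of libraries agreed within sampling noise, and each was counted once.

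Genes were called between KO and WT where the fold change (FC) exceeded 2 and the p-value of edgeR's quasi-likelihood test, adjusted by Benjamini-Hochberg over all genes tested, was below 0.05. The NPC label was checked against lists of markers on this basis. Of 11 neural progenitor markers, all were above the floor in at least 1 WT NPC library, 7 were called lower and 0 higher in the KO, and SOX1 and HES5 were among those at or below the floor in both KO libraries. SOX2 went from 219 and 227 CPM to 12.7 and 21.1 CPM. The summed level of the list was 2915 to 3912 CPM in WT and 3191 to 3256 CPM in KO, most of it from NES, at a mean of 2630 CPM in WT and 3135 CPM in KO. Of 11 mesenchymal markers tested, 7 were called higher and 0 lower, and the summed level went from 168 to 197 CPM in WT to 835 to 988 CPM in KO. TWIST2 of that list was at or below the floor in all 4 NPC libraries, while SNAI2 went from 17.7 and 24.2 CPM to 130 and 174 CPM and NT5E from 2.84 and 20.7 CPM to 212 and 229 CPM. Summed smooth muscle markers were at 873 to 1155 CPM in WT and 3562 to 3585 CPM in KO, nearly all of it from TAGLN, at a mean of 942 CPM in WT and 3499 CPM in KO. TAGLN was the 1 of 5 called higher, ACTA2 had 30.8 and 43.2 CPM in WT and 27.0 and 37.8 CPM in KO, and the median log2 FC of the list was 0.22. Summed epithelial markers were at 406 to 661 CPM and 1418 to 1600 CPM, most of it from KRT8 and KRT18, with 3 of 7 called higher, and EPCAM had means of 3.25 and 2.20 CPM. Of the remaining lists, neuron markers had 1 of 7 called higher and 3 lower, pluripotent markers 0 and 2 of 4, neural crest markers 2 and 0 of 5, and endothelial markers 1 and 1 of 4. The KO NPC libraries thus went against part of their label at the level of these markers. The lists had 0 genes called in HEK293T cells, which is near the 0.489% of all genes called there in either direction. Mesenchymal markers in HEK293T cells summed to 174 to 236 CPM in WT and 175 to 388 CPM in KO. Most of it came from FOXC1, at 134 to 164 CPM in WT and 152 to 380 CPM in KO HEK293T cells. In NPCs FOXC1 had means of 1.44 CPM in WT and 7.89 CPM in KO, so the sums of the 2 cell types rest on different genes.

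In NPCs, 4 of the 5 members were up-regulated in the KO. Of the 20577 genes tested in NPCs, 8.45% were called higher and 8.36% lower in the KO. All 5 members passed the filter on low counts. The median log2 FC of the members was 2.71, beside -0.022 over all genes tested. In the same 2 KO libraries 7 of 11 mesenchymal, 1 of 5 smooth muscle and 3 of 7 epithelial markers were called higher, as given above, and their part in the family's differences was not tested. In bulk RNA, more cells of a kind that transcribes a gene and more RNA per cell cannot be told apart.

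LOX, the founding member, oxidises fibrillar collagen and tropoelastin. It is annotated at chr5:121398890-121414108 on the minus strand of hg19 (ENSG00000113083). The WT NPC libraries S3 and S5 held 694 and 344 LOX counts (32.9 and 17.6 CPM). The KO libraries S1 and S2 held 10659 and 10569 counts (527 and 476 CPM). Both KO libraries were far above both WT libraries, and the WT libraries differed from each other by more than the KO libraries did in proportion. The log2 FC of LOX was 4.31 (SE 0.286), a 19.8-fold difference with a 95% interval of 12.4 to 31.7, at an adjusted p of 0.000139 (edgeR's quasi-likelihood test, Benjamini-Hochberg).

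LOXL4, one of the members with scavenger receptor domains, lies at chr10:100007447-100027951 on the minus strand (ENSG00000138131). It went from 30 counts in S3 and 58 in S5 to 829 in S1 and 1681 in S2. In CPM these are 1.42 and 2.97 in the WT and 41.0 and 75.7 in the KO. LOXL4 thus started from the lowest level of the family in NPCs and had the highest fitted FC, 26.7-fold (95% interval 13.3 to 53.4), with a log2 FC of 4.74 (SE 0.424) and an adjusted p of 0.000407 (edgeR's quasi-likelihood test, Benjamini-Hochberg). Its log2 FC was 5.35 without S5 and 4.21 without S2. The intervals of LOX and LOXL4 overlap, and their order was not tested.

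LOXL2, which has roles in basement membrane collagen crosslinking, is annotated at chr8:23154410-23282841 on the minus strand (ENSG00000134013). It was the most counted member in NPCs of both genotypes. The WT libraries held 2595 and 2519 counts (123 and 129 CPM) and the KO libraries 17715 and 17204 (875 and 775 CPM). The groups do not overlap, and within each group the libraries lay close together. The log2 FC was 2.71 (SE 0.115), a 6.55-fold difference with a 95% interval of 5.43 to 7.91 and an adjusted p of 2.83e-05 (edgeR's quasi-likelihood test, Benjamini-Hochberg).

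LOXL1, which acts in elastic fibre assembly, is annotated at chr15:74218330-74244478 on the plus strand (ENSG00000129038). It went from 307 and 356 counts in WT to 1086 and 1143 in KO NPCs, or from 14.5 and 18.2 CPM to 53.6 and 51.5 CPM. Its log2 FC of 1.68 (SE 0.161), or 3.21-fold with a 95% interval of 2.47 to 4.18, was the smallest of the 4 called members (adjusted p = 0.000523, edgeR's quasi-likelihood test, Benjamini-Hochberg).

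LOXL3, which is known for roles in palate and spine development, is annotated at chr2:74759385-74782817 on the minus strand (ENSG00000115318). It had 548 and 488 counts in WT and 589 and 534 in KO NPCs. These are 25.9 and 25.0 CPM in the WT and 29.1 and 24.1 CPM in the KO, so that the groups overlap. The log2 FC was 0.061 (SE 0.161) with a 95% interval of -0.32 to 0.44, and the adjusted p was 0.815 (edgeR's quasi-likelihood test, Benjamini-Hochberg). The interval leaves out a 2-fold difference in either direction. For the other 4 members both KO libraries were above both WT libraries, as they were for 33.3% of all genes tested in NPCs. The calls of the 4 members were kept under all 11 alternative settings tried for each, including the omission of each library.

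**Figure D1:**
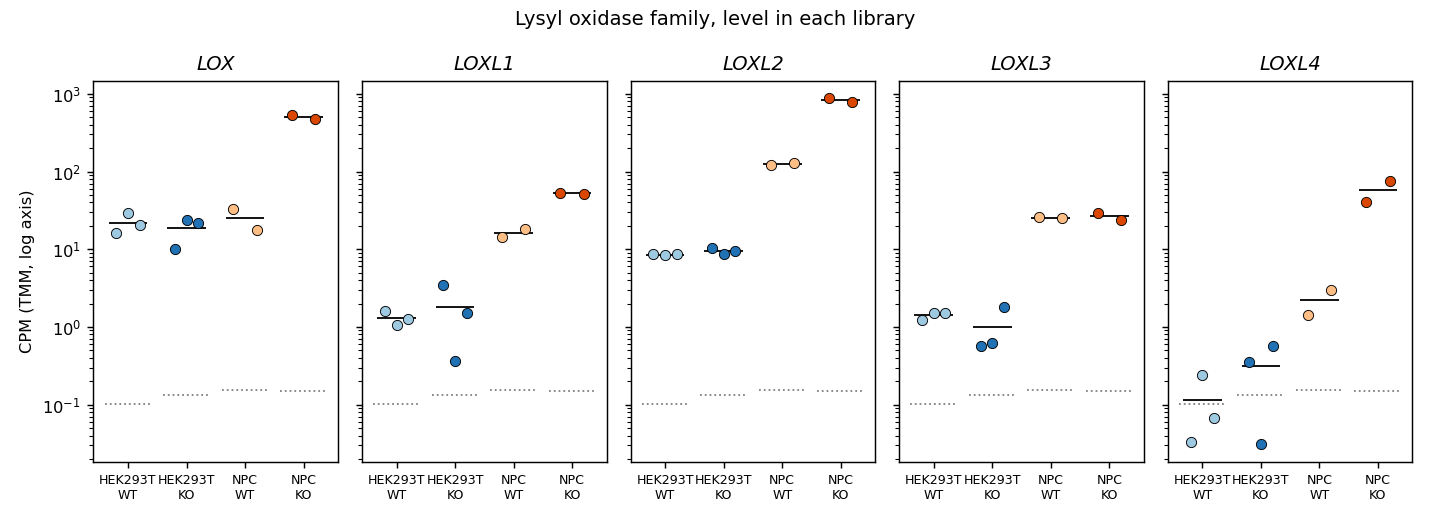
CPM of each member in every library on a log axis, by cell type and genotype, with a horizontal line at the mean of each group and a dotted line at the level of 3 counts (the highest among the libraries of that group). The KO NPC points of LOX, LOXL1, LOXL2 and LOXL4 sit above their WT NPC points, those of LOXL3 overlap them, and in HEK293T cells KO and WT overlap for every member but LOXL2, whose KO points start at 8.66 CPM, just above its highest WT point of 8.61 CPM.

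In HEK293T cells, 0 of the 5 members were called between KO and WT, and 0 had an unadjusted p below 0.05 by edgeR's quasi-likelihood test. DESeq2 and voom called 0 as well. Over all 19018 genes tested, 0.489% were called in either direction, so a count of 0 among 5 is near that share. The WT and KO ranges overlapped for LOX, LOXL1, LOXL3 and LOXL4. For LOXL2 all 3 KO libraries lay above all 3 WT libraries, as they did for 7.16% of the genes tested in HEK293T cells.

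LOX was the most counted member in 5 of the 6 HEK293T libraries, and in S18 LOXL2 was, with 239 counts against 232. In WT cells 480, 845 and 599 LOX counts were found in S15, S16 and S17 (16.02, 29.1 and 20.3 CPM). In KO cells they were 232, 784 and 578 in S18, S19 and S20 (10.1, 24.1 and 21.6 CPM). The lowest value was that of S18, and the other KO libraries lay within the WT range. The log2 FC of -0.23 (SE 0.311) had a 95% interval of -0.91 to 0.46 and an adjusted p of 0.910 (edgeR's quasi-likelihood test, Benjamini-Hochberg), and it became 0.066 without S18.

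LOXL2 had the tightest values in HEK293T cells, with 257, 242 and 254 counts in WT (8.58, 8.33 and 8.61 CPM) and 239, 282 and 257 in KO (10.4, 8.66 and 9.60 CPM). Its log2 FC was 0.17 (SE 0.194) with a 95% interval of -0.26 to 0.60 (adjusted p = 0.892, edgeR's quasi-likelihood test, Benjamini-Hochberg). The lowest KO value lay just above the highest WT value, and the interval includes 0 and leaves out a 2-fold difference.

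The other members had few counts in HEK293T cells. LOXL1 had 48, 31 and 37 counts in WT and 80, 12 and 40 in KO, and S18 and S19 held its highest and lowest values. Its log2 FC was 0.43 (95% interval -0.92 to 1.77), and without S18 it was -0.51. LOXL3 had 37, 44 and 44 counts in WT and 13, 20 and 48 in KO, with a log2 FC of -0.51 (95% interval -1.54 to 0.52). LOXL4 had 1, 7 and 2 counts in WT and 8, 1 and 15 in KO, so that 3 of the 6 libraries were at or under the floor of 3 counts. Its log2 FC of 1.40 had a 95% interval of -0.77 to 3.58. Over the alternatives tried, the log2 FC ran from 0.66 to 2.51 for LOXL4 and from -1.24 to -0.24 for LOXL3. The intervals of these 3 members all include a 2-fold difference in at least 1 direction.

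Whether the KO effect differed between the 2 cell types was asked with an interaction contrast fitted to the 10 libraries together. Of 19255 genes tested, 6.01% were called with a higher KO effect in NPCs and 6.22% with a lower one, and 2 of the 5 members were called, both higher in NPCs. LOX differed by 4.55 on the log2 scale (SE 0.514, 95% interval 3.44 to 5.67, adjusted p = 0.000157, edgeR's quasi-likelihood test, Benjamini-Hochberg). LOXL2 differed by 2.56 (SE 0.179, 95% interval 2.17 to 2.95) at an adjusted p of 7.26e-06 (edgeR's quasi-likelihood test, Benjamini-Hochberg).

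For LOXL1 and LOXL4 the call in NPCs and its absence in HEK293T cells did not amount to a called difference. LOXL4 differed by 3.39 (95% interval 0.76 to 6.03; adjusted p = 0.0797, edgeR's quasi-likelihood test, Benjamini-Hochberg). LOXL1 differed by 1.30 (95% interval -0.34 to 2.94; adjusted p = 0.280, same test), and LOXL3 by 0.59 (95% interval -0.55 to 1.73; adjusted p = 0.507, same test). For each of the 3, leaving out 1 library changed the call. Without the KO HEK293T library S20, LOXL4 differed by 4.21 (adjusted p = 0.0469, edgeR's quasi-likelihood test) and LOXL3 by 1.33 (adjusted p = 0.0282), and both were called. Without S18, LOXL1 differed by 2.24 (adjusted p = 0.0146, edgeR's quasi-likelihood test) and was called. Single omissions also lowered the differences, to 2.30 for LOXL4 without S16 (adjusted p = 0.469, edgeR's quasi-likelihood test), 0.75 for LOXL1 without S19 (adjusted p = 0.323) and 0.28 for LOXL3 without S19 (adjusted p = 0.785). Over the other alternatives LOXL1, LOXL3 and LOXL4 were not called, while LOX and LOXL2 were called in all 16.

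**Figure D2:**
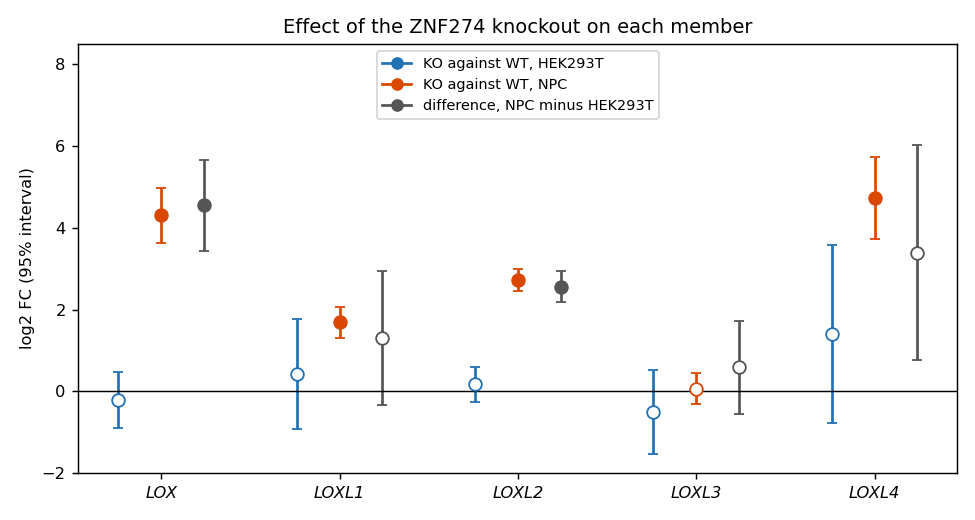
log2 FC of each member with its 95% interval, for KO against WT in HEK293T cells, KO against WT in NPCs, and the difference of these effects; filled points were called and open points were not. The intervals of LOX, LOXL1, LOXL2 and LOXL4 lie above 0 in NPCs, those of LOX, LOXL2 and LOXL4 lie above 0 for the difference (LOXL4 was not called), and those of all 5 members in HEK293T cells include 0.

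Between the WT cells, 4 of the 5 members were higher in NPCs than in HEK293T cells, beside 25.2% of genes called higher and 15.5% called lower. This contrast is between count tables as well as between cell types, and cell type and library batch cannot be told apart. The log2 FC was 3.65 for LOXL1 (SE 0.537), 3.89 for LOXL2 (SE 0.129), 4.17 for LOXL3 (SE 0.372) and 4.22 for LOXL4 (SE 0.748). The folds of the first 3 were 12.5, 14.9 and 18.1, and the adjusted p-values ran from 9.66e-10 for LOXL2 to 0.000403 for LOXL4 (edgeR's quasi-likelihood test, Benjamini-Hochberg). LOXL4 had 1, 7 and 2 counts in WT HEK293T cells, and its log2 FC ran from 3.60 without S5 to 5.31 without S16, called in each case. LOX was the exception, with 16.02 to 29.1 CPM in WT HEK293T cells and 17.6 to 32.9 CPM in WT NPCs. Its log2 FC of 0.22 had a 95% interval of -0.54 to 0.98 (adjusted p = 0.616, edgeR's quasi-likelihood test, Benjamini-Hochberg) and turned to -0.30 without the WT NPC library S3.

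To compare members with each other, levels were expressed as RPKM, the depth-normalised count divided by the annotated exonic length. In WT HEK293T cells LOX led at 3.89 ± 1.21 RPKM (SD, n = 3), followed by LOXL2 at 1.42 ± 0.0207, LOXL1 at 0.359 ± 0.0732, LOXL3 at 0.312 ± 0.0352 and LOXL4 at 0.0317 ± 0.0310. The ranges of the neighbours LOXL1 and LOXL3 overlapped in that order and those of the other neighbours did not. In KO HEK293T cells the order of the means was the same.

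In WT NPCs LOXL2 led at 21.1 ± 0.678 RPKM (SD, n = 2). LOXL3 at 5.66 ± 0.163, LOX at 4.53 ± 1.94 and LOXL1 at 4.52 ± 0.710 followed without a separation between LOXL3 and LOX or between LOX and LOXL1, and LOXL4 came last at 0.612 ± 0.304. In KO NPCs LOXL2 stood at 139.7 ± 10.9 RPKM and LOX at 90.8 ± 5.75, apart from each other and from the rest. LOXL4 at 16.5 ± 7.06 and LOXL1 at 14.7 ± 0.311 overlapped, and LOXL3, which ranked just below LOXL2 in WT NPCs, was last at 5.96 ± 0.753.

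The summed level of the family was 6.01 ± 1.18 RPKM in WT and 5.69 ± 0.880 in KO HEK293T cells (SD, n = 3), and 36.4 ± 0.410 in WT and 267.6 ± 10.6 in KO NPCs (SD, n = 2). LOX made up 63.8% of that sum in WT HEK293T cells, and LOXL2 made up 58.0% in WT NPCs. In KO NPCs LOXL2 kept 52.2% and LOX went from 12.4% to 33.9%. LOXL3 went from 15.5% of the family in WT NPCs to 2.22% in KO NPCs while its own level overlapped between them. In HEK293T cells the KO library S18 differed from the rest, with LOX at 38.2% and LOXL1 at 20.3% of the sum.

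**Figure D3:**
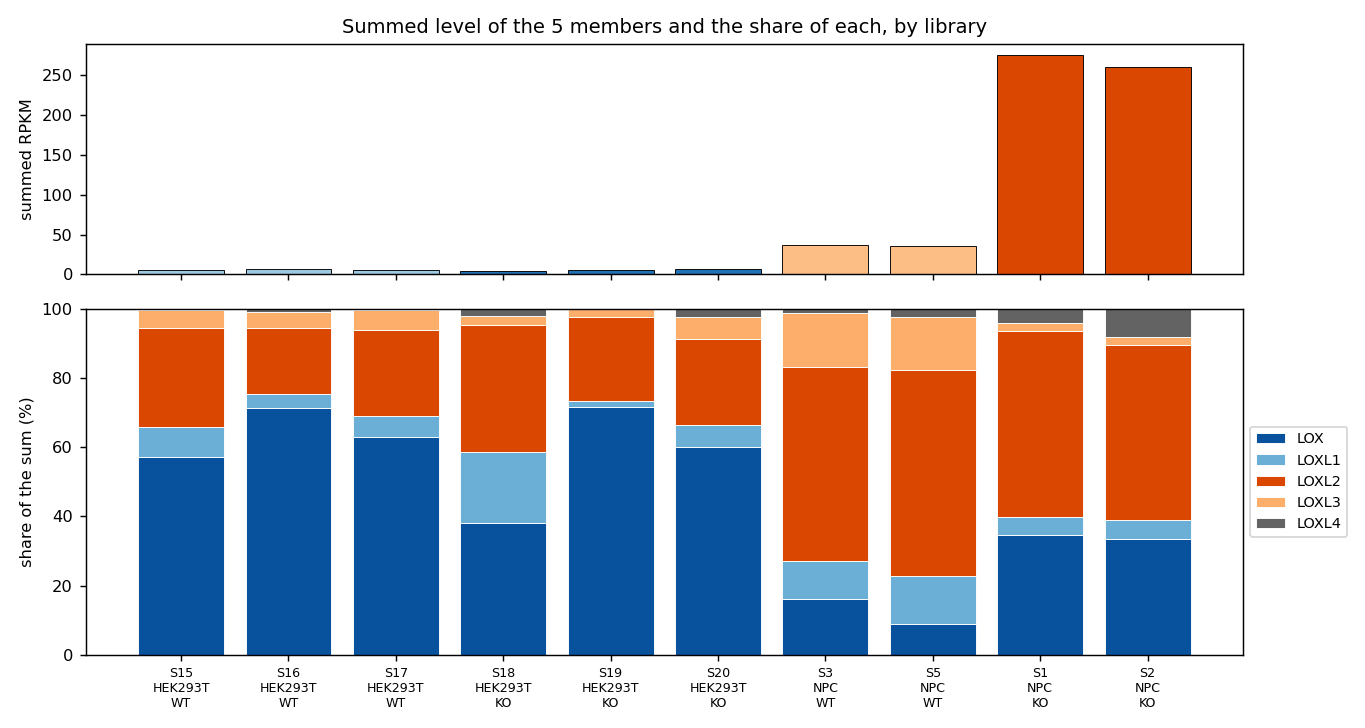
Summed RPKM of the 5 members in each library (upper bars) and the share of that sum held by each member in percent (lower bars). LOX is the main member in HEK293T libraries and LOXL2 in NPC libraries, and the LOX share is higher in the KO NPC libraries (33.4 and 34.5%) than in the WT ones (16.1 and 8.73%).

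The genes around the enzymes in collagen and elastin crosslinking were then counted in NPCs. Among 18 crosslink substrates and matrix partners, 11 were called higher and 1 lower in the KO, with a median log2 FC of 1.69. COL1A1, a chain of type I collagen, went from 558 and 644 CPM to 3457 and 3504 CPM, a log2 FC of 2.53 (SE 0.115). COL3A1, the type III collagen chain, had a log2 FC of 3.59 (SE 0.346), and COL4A1 of basement membrane collagen 2.47 (SE 0.348), or 3.18 without S5. FBLN5 and EFEMP2, fibulins that bring LOX family enzymes to elastic fibres, rose by 2.08 (SE 0.270) and 1.63 (SE 0.162). ELN, which encodes tropoelastin, was the gene called lower, at a log2 FC of -1.39 (SE 0.395), and its levels were low, at 4.91 and 8.38 CPM in WT and 1.94 and 3.16 CPM in KO. The ELN call was lost without S3, without S1, without S2 and with all 10 libraries in one fit, at log2 FCs of -0.95, -1.78, -1.09 and -1.37. COL1A2, the partner chain of COL1A1 in type I collagen, was not called, at a log2 FC of 0.073 (SE 0.353). Its WT libraries lay far apart, at 1317 CPM in S3 and 590 CPM in S5. The KO libraries lay between them, at 1198 and 808 CPM, so its direction depends on which WT library is used.

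POSTN, a matricellular protein that binds BMP1 and promotes LOX processing, had a log2 FC of 3.96 (SE 1.15) but only 1.49 and 18.1 CPM in its KO libraries, and without S1 its log2 FC was 1.24 and no longer called. Without S1 the list had 8 genes called higher.

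Of 5 propeptide processing genes, 3 were called higher and 0 lower. They were TLL1 at a log2 FC of 3.25 (SE 0.887), a protease related to BMP1, and the enhancers of procollagen C-proteinase PCOLCE2 at 1.75 (SE 0.322) and PCOLCE at 1.37 (SE 0.333). This count fell to 0 without S1 and to 1 without S2. TLL1 differed widely between the WT libraries, at 17.2 CPM in S3 and 0.973 CPM in S5, against 84.6 and 89.4 CPM in the KO, and its log2 FC was 6.47 without S3 and 2.33 without S5. PCOLCE2 was at 2.0 and 1.5 CPM in S3 and S5, and at 6.1 and 5.7 CPM in S1 and S2. PCOLCE was at 4.1 and 4.3 CPM in S3 and S5, and at 14.0 and 7.7 CPM in S1 and S2. For all 3 genes each KO library alone was above both WT libraries. BMP1 itself had a log2 FC of 0.48 (SE 0.140), at 26.2 and 28.7 CPM in WT and 36.7 and 39.7 CPM in KO, and did not pass the fold threshold.

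Of 16 genes of collagen lysine and proline modification and folding, 7 were called higher and 1 lower, with a median log2 FC of 0.61. PLOD2, the lysyl hydroxylase that acts on collagen telopeptides, rose by 2.03 (SE 0.160). The prolyl hydroxylases P4HA3, P3H2 and P4HA2 rose by 2.77 (SE 0.526), 2.24 (SE 0.116) and 1.96 (SE 0.230), of which the P4HA3 call was lost without S2, at 2.59. COLGALT2, which glycosylates hydroxylysine, fell by 1.68 (SE 0.266). Copper supply genes had 0 of 7 called in either direction, and 3 passed the adjusted p without the fold threshold. ATP7A, the transporter that loads copper into secreted enzymes, had a log2 FC of 0.90 (SE 0.148), at 22.7 and 23.9 CPM in WT and 40.1 and 47.0 CPM in KO. Of the other quinone copper amine oxidases, AOC2 and AOC3 were tested and neither was called.

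Pathways known to induce LOX family genes were counted in the same way. Of 10 TGF-beta targets, 7 were called higher and 1 lower, with a median log2 FC of 2.55. LTBP2, TGFBI and BHLHE40 rose by 5.95 (SE 0.478), 4.41 (SE 0.221) and 3.14 (SE 0.162), and ID1 fell by 1.91 (SE 0.269). LTBP2 had 1.42 CPM in S3 and 5.43 CPM in S5, against 215 and 203 CPM in the KO, and its log2 FC was 5.27 without S3 and 7.19 without S5. Of 13 hypoxia targets, 2 were called higher and 1 lower, with a median log2 FC of -0.059. NDRG1 rose by 2.89 (SE 0.317) and ADM by 1.49 (SE 0.452), while EGLN3 fell by 1.75 (SE 0.355). The ADM call was lost without S3, where its log2 FC was 0.88, and the EGLN3 call without S1. EGLN3 was at 6.63 and 6.76 CPM in WT, and at 1.43 CPM in S1 and 2.52 CPM in S2, so S2 alone was also below both WT libraries. The lists were chosen with earlier results known, and each count is a description beside the 8.45% and 8.36% of all genes. Each gene was placed in 1 list only, so a gene that responds to more than 1 pathway is counted under 1 of them. The counts of the lists are therefore not a comparison of the pathways, and the part of either pathway in the family's differences was not tested.

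In HEK293T cells 0 genes of any of these lists were called, with 12 of the 18 substrates and partners tested there. Over all genes tested in HEK293T cells 0.489% were called in either direction, so counts of 0 are near that share. For the difference of the KO effect, beside 6.01% of all genes called higher in NPCs and 6.22% lower, 6 of 18 crosslink substrates and partners, 2 of 5 propeptide processing genes, 7 of 16 collagen modification genes, 1 of 7 copper supply genes and 4 of 10 TGF-beta targets were called higher in NPCs, and 0 of each lower. In the same contrast 5 of 12 mesenchymal markers were called higher and 0 lower, and 0 of 10 neural progenitor markers higher and 4 lower, and their part in these counts was not tested. Hypoxia targets had 1 called in each direction.

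**Figure D4:**
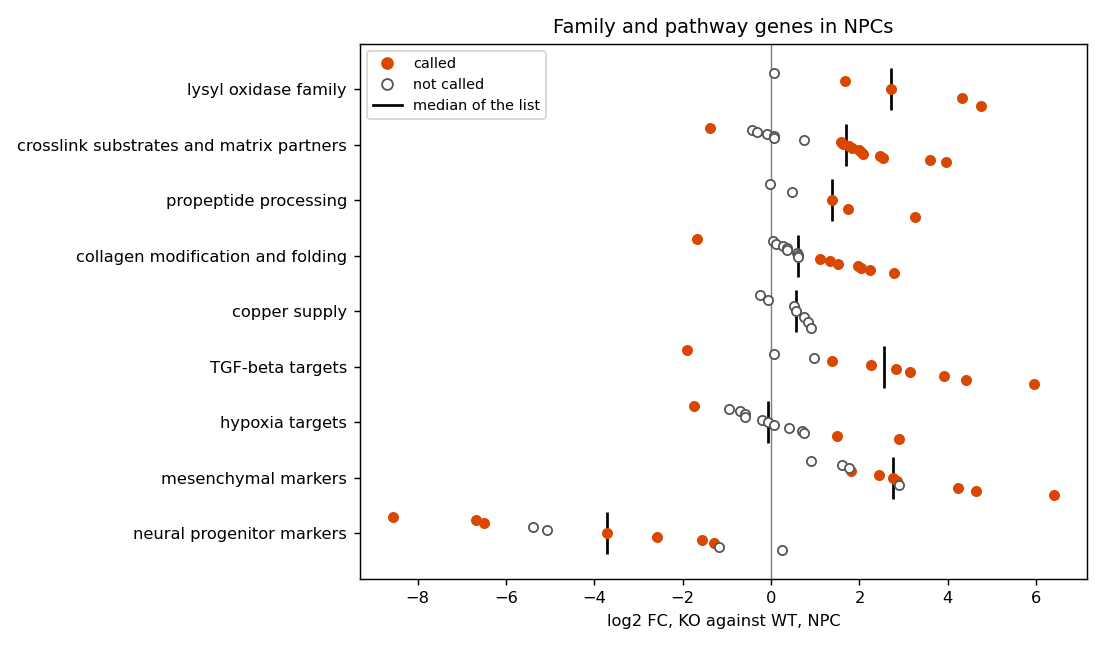
log2 FC of KO against WT NPCs for each tested gene of the family, of its pathway lists and of 2 marker lists; filled points were called, open points were not, and the vertical bar is the median of the list. Family members, crosslink substrates and TGF-beta targets lie mostly above 0, hypoxia targets lie on both sides of 0, and neural progenitor markers lie mostly below 0.

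Several genes share annotated exonic bases with a member, and the strand setting of the counting is not given in the sources used here. LOXL1-AS1, antisense to LOXL1 over 335 bases (9.21% of its exonic length), rose with it in KO NPCs, from 2.76 and 4.36 CPM to 13.4 and 13.9 CPM, at a log2 FC of 1.94 (SE 0.283). Reads of LOXL1 and LOXL1-AS1 in the shared bases cannot be assigned with certainty. HTRA2 shares 936 bases, or 20.7% of the exonic length, with LOXL3 on the opposite strand, and DOK1 shares 216 bases. HTRA2 was at 27.4 and 29.9 CPM in WT and 25.6 and 26.7 CPM in KO NPCs, and neither gene was called there. SRFBP1 shares 138 bases with LOX and had a log2 FC of 0.81 (SE 0.149), and ENTPD4 shares 120 bases with LOXL2 on the same strand and had 0.74 (SE 0.154). Neither passed the fold threshold. LOXL2-AS1 had 0 counts in all 6 HEK293T libraries and 0.189 to 0.631 CPM in NPCs.

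Protein-coding genes within 250000 bases of a member, a window chosen after the data were seen, had 0 of 37 called in HEK293T cells and 3 higher and 3 lower of 43 in NPCs. These counts are near the 0.489% of all genes called in HEK293T cells and the 8.45% and 8.36% called higher and lower in NPCs, and the genes are named as a description. Near LOXL2, TNFRSF10D and TNFRSF10B rose by 2.47 and 1.84 on the log2 scale in KO NPCs. Near LOXL1, ISLR rose by 3.87 and ISLR2 fell by 2.11. Near LOXL3, which did not itself change past the threshold, WDR54 fell by 1.52 and ENSG00000159239 by 1.86. None of the 3 neighbours of LOX or the 5 of LOXL4 tested in NPCs was called.

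For each member the 3 protein-coding genes with the most similar pattern were found among 12471 genes, by the root mean square difference of centred log2(CPM + 0.5) over the 10 libraries. Where a gene is far below 0.5 CPM the offset sets its pattern, so a small difference there is not a likeness of measured levels. This holds in HEK293T cells for ADGRF5, ARHGDIB, PLP2, CD74, IL11 and LTBR, with group means of at most 0.103 CPM, and in WT NPCs for ADGRF5, with a mean of 0.119 CPM. It holds in part for SLC12A8, at means of 0.204 CPM in WT and 0.0248 CPM in KO HEK293T cells. The same applies to LIF, at 0.124 CPM in WT HEK293T cells, and to LRRC32, at 0.25 and 0.24 CPM in WT and KO. LOXL4 itself had a mean of 0.114 CPM in WT HEK293T cells. LOX was closest to ADGRF5, an adhesion receptor, at 0.38, then RCN3 at 0.40 and LRRC32 at 0.42. LOXL1 was most like FLNC, filamin C, at 0.32, then BST1 at 0.35 and FAM114A1 at 0.36. LOXL2 was most like ARHGDIB at 0.21, PLP2 at 0.24 and CD74 at 0.25. LOXL3 was most like SLC12A8 at 0.26, GALC at 0.29 and TNS3 at 0.30. LOXL4 was most like the cytokine genes IL11 at 0.29 and LIF at 0.39, then LTBR at 0.42. The mean IL11 level was 1.48 CPM in WT and 39.5 CPM in KO NPCs, beside 2.19 and 58.3 CPM for LOXL4, and IL11 stayed at 0.0555 CPM in WT and 0.103 CPM in KO HEK293T cells.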

How the data were processed

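The authors aligned reads of stranded mRNA libraries with HISAT2 (hg19) and deposited raw featureCounts counts of uniquely mapped reads per gene, in a table for each cell type (22750 genes in HEK293T cells, 20965 in NPCs). Alignment of stranded data used the RF setting; versions and the strand setting of the counting are not given in the sources used here. Groups were taken from the sample labels, and 0 columns were unused. Genes with a total count at least equal to the number of libraries were tested with edgeR 4.0.16 in R 4.3.3 (TMM, quasi-likelihood test, Benjamini-Hochberg), with thresholds of 0.05 on the adjusted p and 2 on the FC. Each cell type was fitted by itself, and the interaction and the WT contrast over all 10 libraries. CPM values are TMM-normalized within a cell type; RPKM uses TMM over all libraries and exonic lengths of GENCODE v44 lifted to hg19, in which 23273 of 24050 identifiers were found. The fits were tested on simulated data. The alternatives were DESeq2 1.42.0, voom (limma 3.58.1), DESeq2's size factors, library size alone, filterByExpr, no filter beyond 1 count, no fold threshold, all libraries in one fit, and each library left out. The members and lists were chosen with earlier results of these data known. Named genes were the members, ZNF274, overlapping genes, up to 4 called genes per list with the largest FC, genes with a direct role (ATP7A, BMP1, FBLN5, EFEMP2, POSTN, PLOD2, COL1A1, ELN) and the 3 most similar genes per member. Some list genes that this rule would name are not reported here. COL1A2, the marker genes named and the neighbours were chosen after their values were seen. Floors cover counting error only, since the counts carry no molecular identifiers.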

Additional observations from a re-analysis of the deposited data

Results flagged for a closer look

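The KO effect on LOX differed between NPCs and HEK293T cells by 4.55 on the log2 scale, and that on LOXL2 by 2.56, in the interaction test over all 10 libraries. In HEK293T cells the log2 FC was -0.23 for LOX and 0.17 for LOXL2, neither called, and in NPCs it was 4.31 and 2.71, both called. The summed mesenchymal markers differed between WT and KO NPCs as well, at 168 to 197 and 835 to 988 CPM, and their part in these differences was not tested.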

How the results depend on the processing

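The count of members called was the same under the alternatives tried in NPCs (4), in HEK293T cells (0) and between the WT cells (4). For the difference of the KO effect it was 2, and ran from 2 to 4 when single libraries were left out, with 4 without S20 and 3 without S18. Directions that turned were those of members that were not called. In HEK293T cells LOX was at a log2 FC of 0.038 without S16 and 0.066 without S18 (-0.45 to 0.066 over single omissions), and LOXL1 at -0.16 with voom and -0.51 without S18 (-0.51 to 0.94). In NPCs LOXL3 was at -0.048 with library size alone and -0.082 without S1 (-0.082 to 0.18). Between the WT cells LOX was at -0.30 without S3 (-0.30 to 0.60). The cause was not tested. Over the alternatives in NPCs the log2 FC ran from 3.92 to 4.83 for LOX, 1.53 to 1.85 for LOXL1, 2.60 to 2.79 for LOXL2 and 4.21 to 5.35 for LOXL4. Over all genes, HEK293T cells had 91 genes called higher and 2 lower, against 153 and 11 with DESeq2 and 42 and 2 without S16. NPCs had 1738 and 1721, against 3078 and 2812 with no fold threshold and 1141 and 943 without S1. The difference of the KO effect had 1157 and 1197, against 843 and 1702 with library size alone, under which the median log2 FC over all genes was -0.24 in place of -0.025 (in NPCs, -0.13 in place of -0.022). No paired analysis was possible because the library numbers in the labels are unique and no KO library shares one with a WT library. The levels of LOXL1, LOXL3 and LOXL4 in HEK293T cells rest on few counts, at 1 to 80 per library, and also differ between libraries of a group. Groups of 2 NPC libraries limit every NPC comparison.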
